A study of Mus musculus with 8 samples.

Results

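The Krüppel-like factors are a family of DNA-binding proteins with zinc fingers near their C terminus, and 10 of their genes were followed here in the hearts of mice 24 hours after coronary ligation. The 10 genes, Klf2, Klf3, Klf4, Klf5, Klf6, Klf9, Klf10, Klf11, Klf13 and Klf15, were found through probes designed on a RefSeq transcript of each gene, and each gene was read by its brightest probe among those flagged well above background on 4 or more of the 8 arrays. All 10 genes had such a probe, out of 15156 genes with a symbol and a retained probe. The array held 1 probe for each of them, so that no second probe of a gene could be set beside the value given. On all 8 arrays, 9 of the 10 genes were well above background, and Klf5 was well above background on 7.

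Cardiac RNA, labelled as ventricular, came from 4 adult male C57BL\6 mice with permanent ligation of the anterior interventricular artery (MI mice) and from 4 adult male C57BL\6 mice that were sham-operated, and both groups were taken 24 hours after surgery. An age in weeks is not given in the sources used here. According to the methods of the study, both groups were imaged under isoflurane with labeled glucose after acipimox, an inhibitor of lipolysis, and the RNA was made from the excised heart without dissection of the infarct, so that necrotic, bordering and remote muscle lie in 1 sample. Each mouse gave 1 array, read in 1 colour, and the 8 arrays lay in 2 rows of 1 slide with 2 mice of each group in each row. In bulk RNA, fewer cells of a type and less RNA per cell cannot be told apart.

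Krüppel-like factors bind GC-rich and CACCC-containing elements of promoters and recruit activating or repressing cofactors. Klf2 and Klf4 are induced in endothelium by laminar flow through the kinases Mek5 and Erk5 and the factor Mef2, and they are known to restrain adhesion molecules and clotting and to raise the nitric oxide synthase Nos3. In the heart, Klf15 is known as a factor of cardiomyocyte metabolism with a circadian rhythm that responds to glucocorticoids, and Klf10 and Klf11 are early genes of transforming growth factor beta.

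Promoter sequence was at hand for 8 of the 10 genes and is credited to RefSeq (build GRCm38.p6). The 250 bases before the gene start are shown for Klf2, Klf4 and Klf15, the 3 genes that were lower in MI mice at an unadjusted p under 0.05, 5′ to 3′ in the direction of the gene. Capitals mark the E-box CACGTG, to which the clock factors bind, and matches of the MEF2 motif. The Klf2 window lies at chr8:72318812-72319061 on the + strand, the Klf4 window at chr4:55532476-55532725 on the - strand, and the Klf15 window at chr6:90462326-90462575 on the + strand.
Klf2: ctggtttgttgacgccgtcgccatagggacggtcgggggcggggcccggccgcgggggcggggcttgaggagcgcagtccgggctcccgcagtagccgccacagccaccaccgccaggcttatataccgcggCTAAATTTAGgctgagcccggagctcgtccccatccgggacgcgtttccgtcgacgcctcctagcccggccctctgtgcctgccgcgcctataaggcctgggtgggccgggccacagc
Klf4: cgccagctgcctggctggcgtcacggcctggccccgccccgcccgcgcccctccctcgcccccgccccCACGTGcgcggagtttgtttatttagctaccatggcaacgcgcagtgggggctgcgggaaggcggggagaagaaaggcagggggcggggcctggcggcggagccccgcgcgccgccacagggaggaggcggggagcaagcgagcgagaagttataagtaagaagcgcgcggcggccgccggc
Klf15: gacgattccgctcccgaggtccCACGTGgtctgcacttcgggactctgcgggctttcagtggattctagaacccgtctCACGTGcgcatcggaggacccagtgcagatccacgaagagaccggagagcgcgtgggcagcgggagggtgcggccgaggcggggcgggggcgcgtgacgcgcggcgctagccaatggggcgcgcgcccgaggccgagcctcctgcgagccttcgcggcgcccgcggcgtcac

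The Klf2 window held 1 match of the MEF2 motif, whose first base lies 118 bases before the gene start. No other of the 8 windows held such a match, and 2.92% of 32851 promoter windows of the same length did. The Klf15 window held 2 E-boxes, which start 228 and 172 bases before the gene start, and the Klf4 window held 1, which starts 182 bases before it. The windows of Klf6 and Klf11 held 1 E-box each, so that 4 of the 8 windows had a match, beside 6.02% of all windows. The letters CACCC, which Klf proteins themselves can bind, stood in 5 of the 8 windows and in 52.0% of all windows, and the GC box GGGCGG stood in 7 of the 8 windows and in 32.7% of all. Both strands were searched. Matches of different motifs overlapped at 1 place in the Klf3 window and at 1 place in the Klf13 window, and at no place in the windows printed. These matches describe the letters and do not show binding.

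Signals were normalized with the spike-in RNA that was added before labeling, and the values below are log2 intensities after that fit. The fit adds a constant to the signal of each array, from 166 to 257, while the log2 values that the authors normalized on the spike-ins contain constants from 3.16 to 19.6. A larger constant compresses the fold changes of dim probes more. Differences are log2 fold changes of MI mice over sham-operated mice from limma with their standard error (SE) and with Benjamini-Hochberg adjustment of the p-values across the 34038 probes retained. A gene passed the test at an adjusted p under 0.05. Each array was also divided by its own 75th percentile and tested the same way, and the log2 values normalized by the authors were tested too. Exact permutation tests were two-sided and cannot give a p below 0.0286 with 4 mice in each group. Precision is limited by the number of arrays, and no source used here says whether the mice of a group were operated together.

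None of the 10 Klf genes passed the test after the spike-in fit (limma, 0 higher and 0 lower), where 3.38% of all retained probes passed as higher and 0.355% as lower in MI mice. Past 2-fold and the same adjusted p there was again no Klf gene, beside 0.978% of the probes. The study asked for 2-fold and a q-value under 5% from significance analysis of microarrays on its own values. In limma on the authors' values, 1 Klf gene was past 2-fold and the adjusted p (Klf5, 2.95-fold, adjusted p = 0.00234), beside 1007 of 33937 probes. After the spike-in fit, 4 of the 10 genes differed at an unadjusted p under 0.05. Klf5 was higher and Klf2, Klf4 and Klf15 were lower, beside 15.4% of all probes in either direction. With significance analysis of microarrays, the test that the study names, on the same values, 1 gene passed as higher (Klf5) and 2 as lower (Klf4 and Klf15), beside 7.11% and 1.91% of the probes. The mean was lower in MI mice for 6 of the 10 genes and higher for 4, with a median log2 fold change of -0.29 beside 0.03 over all retained probes.

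After scaling to the 75th percentile, Klf5 rose and Klf4 and Klf15 fell in limma, each with its adjusted p under 0.05, beside 8.69% of the probes higher and 8.8% lower. The same 3 genes passed with the authors' normalized values, beside 4.97% of the probes higher and 0.946% lower. The share of higher among all probes called was 90.5% after the spike-in fit and 49.7% after scaling to the 75th percentile. Relative to the mean spike-in signal, the 75th percentile of an array lay at -3.50 in MI replicate 2 and at -3.51 in sham replicate 2, and between -3.27 and -2.86 on the other arrays, on a log2 scale. After the spike-in fit, replicate 2 was the lowest mouse of both groups for Klf3, Klf9, Klf10 and Klf13. For these genes, and for Klf15, the SD in each group was smaller after scaling. For Klf5, Klf6 and Klf11 the SD was larger after scaling in both groups. For Klf2 and Klf4 it was larger in MI mice (0.57 to 0.75 and 0.35 to 0.51) and smaller in sham-operated mice. Sham replicate 4 had 20 of 33865 probes more than 2 log2 units above every other mouse, MI replicate 2 had 6, and the others had 0 to 2. The median over the 10 genes was -0.44 after scaling, beside -0.02 over all probes, and -0.32 with the authors' values, beside 0.09.

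**Figure D1:**
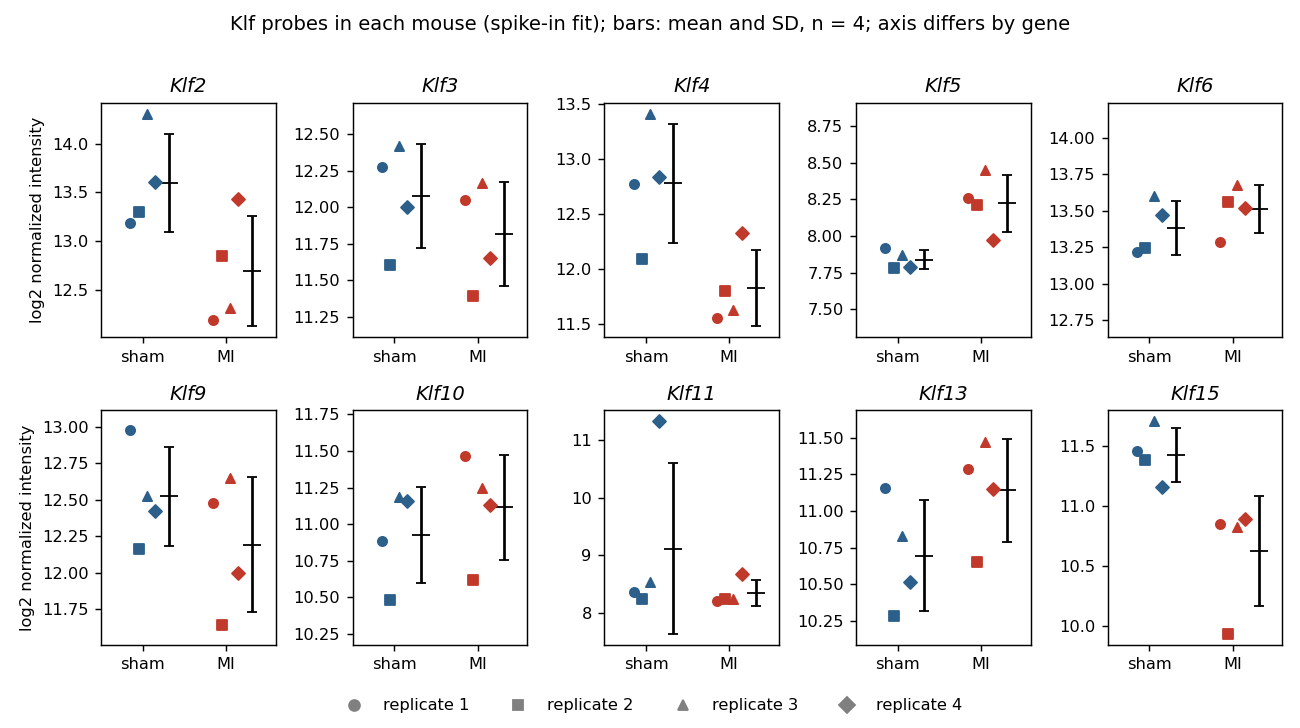
Log2 normalized intensity of the 10 Klf probes after the spike-in fit, with 1 panel per gene and its own axis, 1 point per mouse (shape: replicate number) and the mean ± SD of 4 mice at the side. The groups do not overlap for Klf5 and Klf15, and a single sham-operated mouse stands far above all other mice for Klf11.

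Klf15, the metabolic Klf of cardiomyocytes, was lower in every MI mouse than in every sham-operated mouse. Its log2 intensities were 10.85, 9.93, 10.82 and 10.89 in MI replicates 1 to 4. In sham replicates 1 to 4, they were 11.46, 11.39, 11.71 and 11.16. The groups did not overlap, as was so for 2.39% of all probes with MI below sham, and MI replicate 2 stood apart below the other MI mice. The fit gave a log2 fold change of -0.81 ± 0.22 (SE), a level 1.75-fold higher in sham-operated mice, with an adjusted p of 0.101 in limma and an exact permutation p of 0.0286. Without MI replicate 2, which lies far below the rest, the difference shrank to -0.57 and passed the test with an adjusted p of 0.0322 in limma. In the first row of the slide the difference was -1.03, and in the other it was -0.58.

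Scaled to the 75th percentile, the log2 levels of Klf15 were 10.45, 9.94, 10.37 and 10.61 in MI mice and 11.26, 11.63, 11.48 and 11.16 in sham-operated mice. No mouse crossed to the other group. On this scale Klf15 fell by 1.04 on the log2 scale (SE 0.17, 95% confidence interval -1.42 to -0.66, adjusted p = 0.00473 in limma), to a level 2.05-fold lower. It passed in each of the 8 fits that left out 1 mouse. With the authors' normalized values, the log2 fold change was -0.91 ± 0.25 (SE) and the adjusted p was 0.0351 in limma, and the test was no longer passed without sham replicate 1 (adjusted p = 0.0573), sham replicate 2 (0.0503) or sham replicate 3 (0.105).

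Klf4, which acts in endothelium, smooth muscle and macrophages, had log2 intensities of 11.55, 11.80, 11.62 and 12.32 in MI mice. In sham-operated mice they were 12.77, 12.09, 13.41 and 12.84. Only MI replicate 4 reached into the range of the sham-operated mice, where sham replicate 2 was the lowest. The difference was a log2 fold change of -0.95 ± 0.27 (SE), 1.93-fold higher in sham-operated mice, with an adjusted p of 0.117 in limma and an exact permutation p of 0.0571. Without sham replicate 2, the difference was -1.18 and the adjusted p was 0.049 in limma.

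The same gene had levels of 11.22, 12.07, 11.24 and 12.15 in MI mice and 12.64, 12.37, 13.25 and 12.93 in sham-operated mice after scaling to the 75th percentile. On that scale the groups did not overlap, and Klf4 fell by 1.12 on the log2 scale (SE 0.27, adjusted p = 0.0225 in limma), to a level 2.18-fold lower. Without MI replicate 1, MI replicate 3, sham replicate 3 or sham replicate 4, the test was not passed, with adjusted p-values of 0.0538, 0.0629, 0.0579 and 0.0585 in limma and differences between -1.08 and -0.97. With the authors' normalized values, the difference was -0.999 ± 0.27 (SE, adjusted p = 0.0308 in limma), and without MI replicate 1, MI replicate 3 or sham replicate 3 the adjusted p was 0.104, 0.0654 and 0.104.

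Klf2, the close relative of Klf4 in endothelium that also keeps T cells quiescent, had log2 intensities of 12.19, 12.85, 12.32 and 13.43 in MI mice. In sham-operated mice they were 13.19, 13.30, 14.31 and 13.60. MI replicate 4 lay among the sham-operated mice, and the other 3 MI mice lay below all of them. As a log2 fold change this was -0.90 ± 0.32 (SE), 1.87-fold higher in sham-operated mice, with an adjusted p of 0.207 in limma and an exact permutation p of 0.0857. Scaling to the 75th percentile gave -1.06 ± 0.36 (SE, adjusted p = 0.0768 in limma) and the authors' values gave -0.94 ± 0.29 (SE, adjusted p = 0.0658). Klf2 passed in none of the 3. Without MI replicate 4 it passed on the 75th percentile scale (-1.30, adjusted p = 0.039 in limma) and with the authors' values (-1.19, adjusted p = 0.00775), and with the authors' values also without sham replicate 1 (adjusted p = 0.0384) or sham replicate 2 (0.0488). In both genes, MI replicates 1 and 3 were the lowest mice after the 75th percentile scaling, MI replicate 4 was the highest MI mouse, and sham replicate 3 was the highest of all 8.

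Klf5, an activating factor of smooth muscle, fibroblasts and cardiomyocytes, was dim. Its processed signals, before any normalization between arrays, were 88.1, 115, 126 and 49.5 in MI mice. In sham-operated mice they were 34.4, 17.7, 15.7 and 12.1, and sham replicate 4 was not well above background. Every MI mouse was above every sham-operated mouse. Every one of these signals lies below the smallest constant of the spike-in fit.

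After the spike-in fit, the log2 intensities of Klf5 were 8.26, 8.21, 8.45 and 7.97 in MI mice and 7.92, 7.78, 7.87 and 7.79 in sham-operated mice. The groups did not overlap, as was so for 6.61% of all probes with MI above sham. This gave a log2 fold change of 0.38 ± 0.10 (SE), with an adjusted p of 0.0843 in limma and an exact permutation p of 0.0286. MI replicate 4 was the lowest MI mouse, and without it the adjusted p was 0.0334 in limma. In the rows of the slide the difference was 0.39 and 0.38.

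On the 75th percentile scale, the levels of Klf5 were 6.28, 6.88, 6.86 and 5.30 in MI mice and 4.76, 4.54, 4.20 and 3.93 in sham-operated mice. Klf5 rose by 1.97 on the log2 scale (SE 0.35, 95% confidence interval 1.19 to 2.75, adjusted p = 0.00665 in limma), or 3.93-fold. The authors' values, in which sham replicate 4 is missing, gave 1.56 ± 0.29 (SE, adjusted p = 0.00234 in limma), or 2.95-fold. In both, the test was passed whichever mouse was left out. Over 6 normalizations the change ranged from 1.31-fold (spike-in fit) to 4.30-fold (log2 signals shifted by the mean of the spike-ins, with no constant), and MI mice had the higher mean in each.

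**Figure D2:**
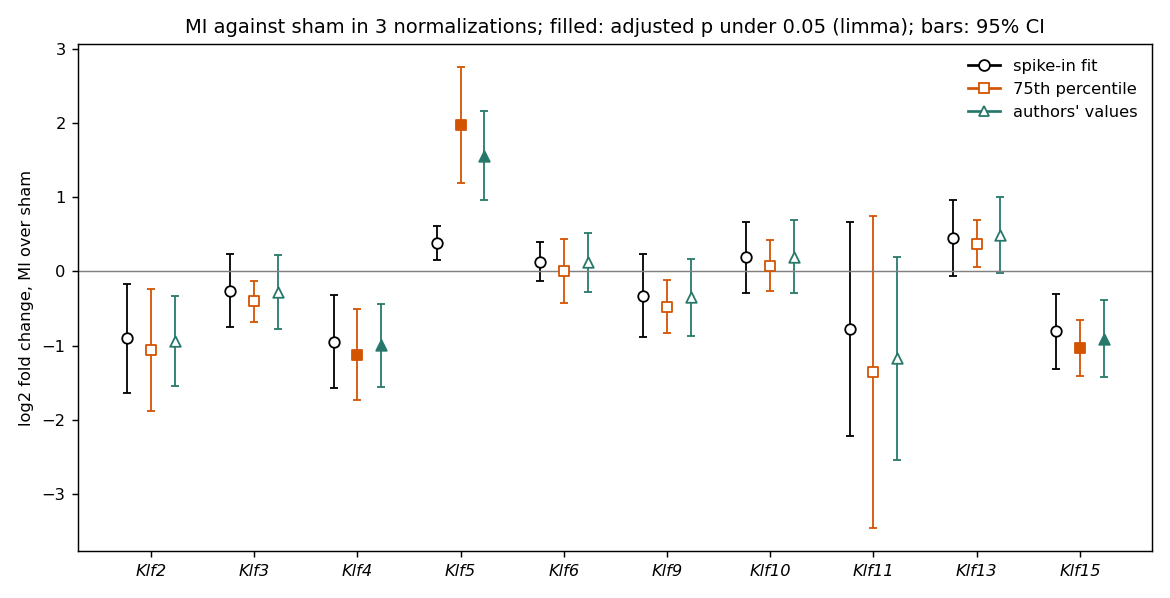
Log2 fold changes of MI mice over sham-operated mice for the 10 Klf genes (vertical axis) with the 95% confidence interval, after the spike-in fit (circles), after scaling to the 75th percentile (squares) and for the authors' normalized values (triangles). Filled symbols have an adjusted p under 0.05 in limma, which holds for Klf4, Klf5 and Klf15 in the latter 2 normalizations and for no gene after the spike-in fit.

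Klf9, which is induced by glucocorticoids and follows the clock, had log2 intensities of 12.48, 11.64, 12.65 and 12.00 in MI mice. In sham-operated mice they were 12.98, 12.17, 12.52 and 12.42. The groups overlapped, with a log2 fold change of -0.33 ± 0.24 (SE, adjusted p = 0.644 in limma). After scaling to the 75th percentile every MI mouse was below every sham-operated mouse, and the difference was -0.48 ± 0.16 (SE, adjusted p = 0.0707), just short of the threshold.

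Klf3, a repressor that works through the corepressor CtBP, had log2 intensities of 12.05, 11.40, 12.16 and 11.65 in MI mice and of 12.28, 11.61, 12.41 and 12.00 in sham-operated mice. Their difference was a log2 fold change of -0.26 ± 0.22 (SE, adjusted p = 0.703 in limma), and the groups overlapped. On the 75th percentile scale the groups did not overlap, with -0.41 ± 0.12 (SE, adjusted p = 0.054). On that scale, MI was below sham without overlap for 4 of the 10 genes (Klf3, Klf4, Klf9 and Klf15) and above for 1 (Klf5), beside 12.6% and 10.9% of all probes.

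Klf6, a factor that many tissues induce on injury, had log2 intensities of 13.29, 13.56, 13.68 and 13.52 in MI mice. In sham-operated mice they were 13.21, 13.25, 13.60 and 13.47. The groups lay over each other, and they did so in all 3 normalizations. The log2 fold change was 0.13 ± 0.11 (SE, 95% confidence interval -0.13 to 0.39, adjusted p = 0.735 in limma) after the spike-in fit and -0.000246 ± 0.19 (SE, 95% confidence interval -0.43 to 0.43) after scaling, where its sign turns. Among the Klf genes whose interval held 0 after the spike-in fit, that of Klf6 was the narrowest.

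Klf10, an early target of transforming growth factor beta, had log2 intensities of 11.47, 10.62, 11.25 and 11.13 in MI mice. The sham-operated mice had 10.88, 10.48, 11.18 and 11.16. With a log2 fold change of 0.19 ± 0.21 (SE, adjusted p = 0.810 in limma), and of 0.08 ± 0.15 (SE) on the 75th percentile scale, the groups covered much the same range.

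Klf11, the other early target of transforming growth factor beta, was dim in 7 of the 8 mice. Its log2 intensities were 8.20, 8.23, 8.24 and 8.67 in MI mice and 8.36, 8.24, 8.53 and 11.34 in the sham group. Sham replicate 4 alone was high, with a processed signal of 2072 beside signals from 77.1 to 232 on the other arrays. The log2 fold change of -0.78 ± 0.63 (SE, adjusted p = 0.690 in limma) rests on this mouse, and without it the difference was -0.04 (SE 0.14).

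Klf13, which partners with cardiac factors in heart development, had log2 intensities of 11.29, 10.65, 11.47 and 11.15 in MI mice. In sham-operated mice they were 11.16, 10.28, 10.83 and 10.51. The log2 fold change was 0.45 ± 0.22 (SE, adjusted p = 0.405 in limma), with overlap between the groups. After scaling it was 0.37 ± 0.14 (SE, adjusted p = 0.105), and without sham replicate 1 it was 0.49 and passed (adjusted p = 0.0233 in limma).

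Of the 7 other Klf genes looked for, 4 had a retained probe, and 0 of the 4 passed after the spike-in fit in limma or in significance analysis of microarrays, nor at an unadjusted p under 0.05. Klf1, Klf8 and Klf14 were well above background on 2, 1 and 1 of the 8 arrays and were left out. Klf7 differed by 0.30 ± 0.20 (SE), Klf16 by 0.11 ± 0.09 and Klf17 by 0.02 ± 0.07. Klf12, a repressor, differed by -0.22 ± 0.13 (SE, adjusted p = 0.503). On the 75th percentile scale it fell by 0.57 on the log2 scale (SE 0.14, adjusted p = 0.0251 in limma). There, every MI mouse was below every sham-operated mouse for Klf12, as was so for 12.6% of all probes. The Sp factors, the nearest relatives of the family, had 7 retained genes and none that passed (1 lower at an unadjusted p under 0.05, and 0 in significance analysis of microarrays), with a median log2 fold change of -0.02. After scaling to the 75th percentile 1 of them fell, Sp4, by 0.74 on the log2 scale (SE 0.13, adjusted p = 0.00621 in limma), named after its values were seen.

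Partners and regulators of the family were counted next, from lists written down for this purpose. Of all retained probes, 3.38% rose and 0.355% fell in limma after the spike-in fit, and 15.4% had an unadjusted p under 0.05. On the 75th percentile scale 8.69% rose and 8.8% fell, and in significance analysis of microarrays 7.11% and 1.91%. The list counts below are to be read beside these shares. Of 14 cofactors and ubiquitin ligases that act on Klf proteins, 0 passed in limma after the spike-in fit (2 higher at an unadjusted p under 0.05, and 0 of 13 in significance analysis of microarrays), with a median of 0.03. When scaled to the 75th percentile, 2 of the 14 rose, the corepressor Ctbp2 by 0.32 ± 0.09 (SE, adjusted p = 0.0463) and the ubiquitin ligase Smurf1 by 0.85 ± 0.24 (SE, adjusted p = 0.0401), both named after their values were seen. Of 7 genes of the flow-sensing path Mek5, Erk5 and Mef2, 0 passed in limma, while 4 were higher at an unadjusted p under 0.05 and 1 passed in significance analysis of microarrays, and the median was 0.33. On the 75th percentile scale, 3 of them rose and 2 fell, beside 8.69% and 8.8% of all probes. Mapk7, which encodes Erk5 and is named here after its values were seen, had a log2 fold change of 0.60 ± 0.15 (SE, adjusted p = 0.0677 in limma). It was higher in every MI mouse than in every sham-operated mouse, as was so for 6.61% of all probes. On the 75th percentile scale Mapk7 rose by 0.57 ± 0.12 (SE, adjusted p = 0.0119 in limma), and with the authors' values it did not pass (adjusted p = 0.0605).

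Of 13 endothelial genes linked to Klf2 and Klf4, 2 rose in MI mice and 0 fell in limma after the spike-in fit. This stands beside 3.38% and 0.355% of all probes. On the 75th percentile scale 4 rose and 0 fell, beside 8.69% and 8.8%. The median log2 fold change after the spike-in fit was 0.33 beside 0.03 over all probes. Thbd, the anticoagulant receptor thrombomodulin, rose by 0.91 ± 0.20 (SE, adjusted p = 0.0477 in limma) on the log2 scale, and Sele, the endothelial adhesion molecule E-selectin, rose by 0.42 ± 0.08 (SE, adjusted p = 0.0299). Sele was dim, and its log2 fold change was 3.00 ± 0.36 (SE, adjusted p = 0.00142) on the 75th percentile scale and 2.16 ± 0.37 (SE, adjusted p = 0.00189) with the authors' values. Klf2 and Klf4 are known to raise Thbd and Nos3 and to lower Sele, and their part in these values was not tested. The mean was higher in MI mice for 10 of the 13 and lower for 3. Icam1 (0.82 ± 0.20, SE), Vcam1 (0.54 ± 0.18), Edn1 (0.32 ± 0.07) and Plat (0.63 ± 0.15) did not pass after the spike-in fit and are named after their values were seen. On the 75th percentile scale Icam1 rose by 1.53 ± 0.26 (SE, adjusted p = 0.00609 in limma) and Plat by 0.67 ± 0.10 (adjusted p = 0.00291). Both also rose with the authors' values (adjusted p = 0.00143 and 0.0356 in limma), while Vcam1 and Edn1 passed in neither. After the spike-in fit, every MI mouse was above every sham-operated mouse for Icam1, Vcam1, Edn1 and Plat, beside 6.61% of all probes. Without MI replicate 1 or 3, or without sham replicate 1, 2 or 4, 0 of the 13 rose in limma, and without sham replicate 3, 1 did. Leaving out MI replicate 2 gave 4. All 8 mice gave 7 genes higher at an unadjusted p under 0.05, beside 15.4% of all probes in either direction. In significance analysis of microarrays 5 rose, beside 7.11% of the probes. Nos3, named after its values were seen, differed by 0.43 ± 0.20 (SE, adjusted p = 0.358).

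Heart genes linked to Klf15, which cover potassium current, branched-chain amino acid breakdown and fatty acid use, had 19 retained genes, and 0 passed after the spike-in fit in limma or in significance analysis of microarrays, with 1 lower at an unadjusted p under 0.05. Their median log2 fold change was -0.17. On the 75th percentile scale 6 of the 19 fell and 0 rose, beside 8.8% and 8.69% of all probes. The median there was -0.30, beside -0.02 over all probes. With the authors' values, 0 passed in either direction. The 6 were Bckdhb, Dbt, Aldh6a1 and Hibch, of branched-chain amino acid breakdown, and Hadhb and Cpt1b, of fatty acid oxidation, with log2 fold changes between -0.63 and -0.36 on that scale, all named after their values were seen. Other listed genes of branched-chain amino acid breakdown did not pass there, with 0.33 ± 0.20 (SE, adjusted p = 0.291) for Bcat2, -0.22 ± 0.13 (adjusted p = 0.258) for Bckdha and -0.16 ± 0.12 (adjusted p = 0.398) for Ivd. Of fatty acid use, Hadha (0.05 ± 0.16, SE, adjusted p = 0.861) and Acadvl (-0.25 ± 0.10, adjusted p = 0.132) did not pass there. Nor did Acsl1, Slc27a1, Lpl and Fabp3, with log2 fold changes between -0.41 and -0.19. These genes too are named after their values were seen. Kcnip2, the subunit of the transient outward potassium channel that Klf15 is known to drive, differed by -0.01 ± 0.21 (SE) after the spike-in fit and is named after its values were seen.

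Glucocorticoid-responsive genes, the group to which Klf9 and Klf15 belong by their regulation, had 12 members, of which 1 rose and 1 fell in limma after the spike-in fit. Sgk1, a kinase of ion transport, fell by 0.97 ± 0.17 on the log2 scale (SE, adjusted p = 0.0198), and Mt2, a metallothionein, rose by 0.78 ± 0.18 (SE, adjusted p = 0.0493). The median was -0.13. On the 75th percentile scale 1 rose and 3 fell. Clock genes whose peak is near that of Dbp had 11 members and 0 calls in limma (3 lower at an unadjusted p under 0.05, and 1 lower in significance analysis of microarrays), with a median of -0.17 after the spike-in fit and -0.47 after scaling, where 2 fell. Those that peak with Arntl had 5 members and 0 calls after the spike-in fit (1 higher at an unadjusted p under 0.05, and 0 in significance analysis of microarrays), with a median of 0.10.

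Klf10 and Klf11 are early targets of transforming growth factor beta. A list that joins ligands and receptors of that pathway with early response genes had 12 members, of which 3 rose and 0 fell in limma after the spike-in fit. Tgfb2, a ligand of the pathway, rose 2.83-fold (SE 0.21 on the log2 scale, adjusted p = 0.00566), and Id2, an inhibitor of differentiation factors, rose by 0.87 ± 0.12 (SE, adjusted p = 0.00497). Tgfb1, another ligand, named after its values were seen, rose by 0.78 ± 0.15 (SE, adjusted p = 0.0259), and the remaining 9 genes did not pass. Among these were the response genes Smad7 (0.11 ± 0.16, SE) and Skil (-0.06 ± 0.17), named after their values were seen. Without MI replicate 1, 3 or 4, or without sham replicate 2, 3 or 4, 2 rose. The median over the 12 was 0.18. At an unadjusted p under 0.05, 3 were higher and 3 lower. In significance analysis of microarrays, and with the authors' values, 3 rose and 1 fell. Id1, named after its values were seen, differed by -0.89 ± 0.22 (SE, adjusted p = 0.0676 in limma). With the authors' values it fell by 0.92 (SE 0.23, adjusted p = 0.0216 in limma). On the 75th percentile scale, 3 rose and 3 fell, beside 8.69% and 8.8% of all probes.

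**Figure D3:**
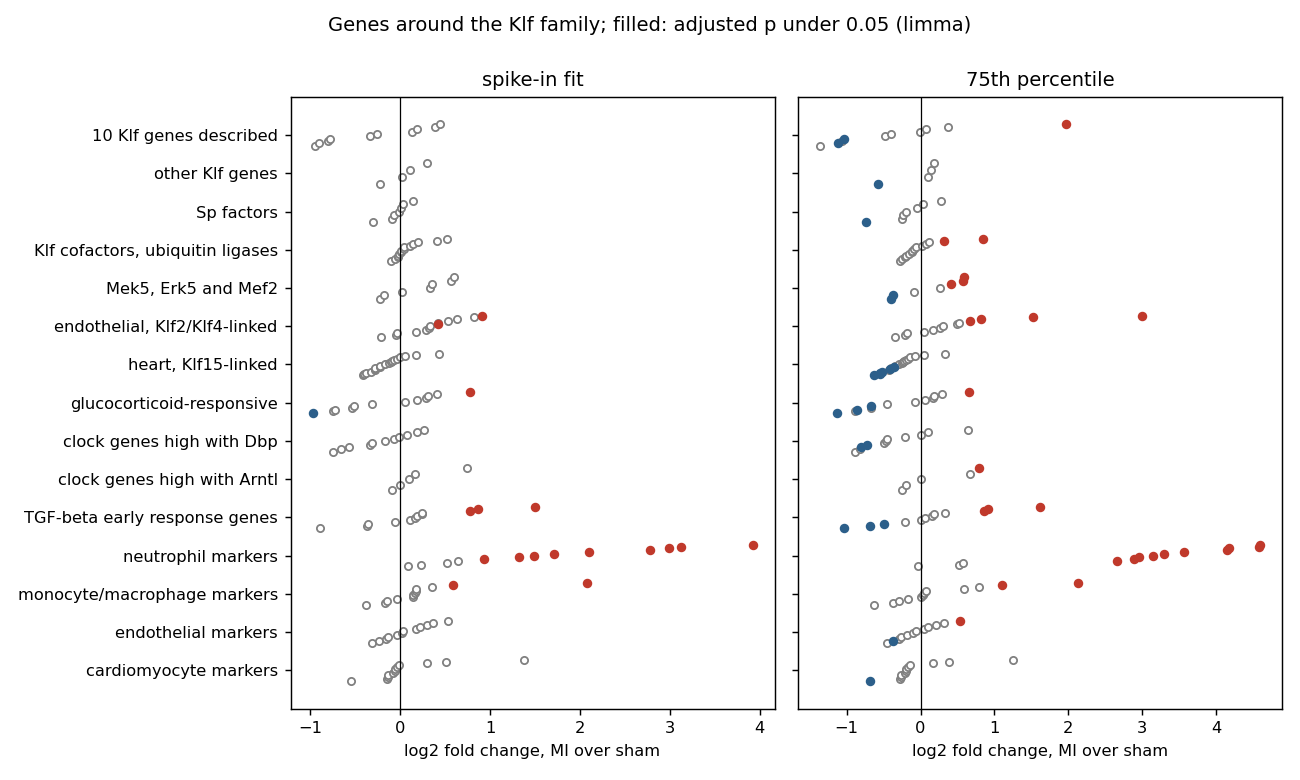
Log2 fold changes of MI mice over sham-operated mice (horizontal axis) for the 10 Klf genes and for lists of related genes and cell markers, 1 point per gene, after the spike-in fit (left) and after scaling to the 75th percentile (right). Red points rose and blue points fell at an adjusted p under 0.05 in limma, and open points did not pass. The neutrophil markers lie farthest to the right in both panels, and among the 10 Klf genes 3 are filled on the right and none on the left.

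Markers of the cells in which the Klf genes are known to act were read in the same fit. Neutrophil markers had 13 retained genes (Ly6g was not retained), of which 9 rose and 0 fell, led by Retnlg (3.92 ± 0.32, SE, adjusted p = 0.00054 in limma) and Stfa2l1 (3.13 ± 0.21, adjusted p = 0.000279). Their summed signal, shifted by the spike-ins, was 256021 to 373197 in MI mice and 77373 to 121567 in sham-operated mice, without overlap. Of the 13, 10 rose on the 75th percentile scale, with a median of 3.15 in place of 1.49. Of 12 retained markers of monocytes and macrophages (Cd68 and Ly6c2 were not retained), 2 rose, Cd14 by 2.08 ± 0.29 (SE, adjusted p = 0.0061) and Ccr2 by 0.59 ± 0.11 (SE, adjusted p = 0.024), and the summed signals of the groups overlapped (43182 to 65185 and 38748 to 68334). The mean was higher in MI mice for 8 of these 12 and lower for 4, with a median of 0.16. A gene was not retained if no probe was both named by its RefSeq transcript and well above background on 4 or more arrays. The study itself reports CD68 as higher in MI mice on these arrays. The part of neutrophils, monocytes and macrophages in the values of the Klf genes was not tested.

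Endothelial markers, all 12 of which were retained, had 0 calls in limma after the spike-in fit (2 higher at an unadjusted p under 0.05, and 1 in significance analysis of microarrays), a median of 0.03 and summed signals that overlapped (68449 to 92242 in MI mice, 73314 to 100313 in sham-operated mice). Their largest differences were those of Pecam1 (0.53 ± 0.21, SE, adjusted p = 0.255) and Emcn (0.37 ± 0.10, adjusted p = 0.0897). The mean was higher in MI mice for 7 of the 12 and lower for 5. Scaled values gave a rise of Pecam1 on the 75th percentile scale (0.53 ± 0.15, SE, adjusted p = 0.0364 in limma) and a fall of Flt1, named after its values were seen (-0.37 ± 0.11, adjusted p = 0.0473). As a check of the labelled tissue, all 12 markers of cardiomyocytes were retained, and 0 passed (2 higher and 1 lower at an unadjusted p under 0.05, and 0 in significance analysis of microarrays), with a median of -0.06 and largest differences for Nppa (1.38 ± 0.53, SE, adjusted p = 0.242) and Pln (-0.55 ± 0.18, adjusted p = 0.178). Their summed signals overlapped (2576940 to 3852260 in MI mice, 2815520 to 3705130 in sham-operated mice). Of the 12, 1 fell on the 75th percentile scale, Pln, by 0.68 on the log2 scale (SE 0.12, adjusted p = 0.00644).

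The 10 fibroblast markers had 0 calls in limma after the spike-in fit (1 higher at an unadjusted p under 0.05, and 1 in significance analysis of microarrays), with Col3a1 at -0.71 ± 0.36 (SE) and Col1a1 at -0.53 ± 0.32. Their mean was lower in MI mice for 7 and higher for 3, with a median of -0.33. Postn, named after its values were seen, differed by 0.51 ± 0.13 (SE, adjusted p = 0.0719 in limma). The summed signals overlapped (82438 to 184186 in MI mice, 143112 to 221510 in sham-operated mice). Of 9 markers of smooth muscle and pericytes, 1 rose and 0 fell, Acta2, by 1.45 ± 0.27 (SE, adjusted p = 0.024), and Des differed by 0.79 ± 0.19 (adjusted p = 0.0609). The mean was lower in MI mice for 5 of the 9, and the median was -0.01. The summed signals did not overlap (60832 to 87539 in MI mice, 35490 to 53279 in sham-operated mice). Acta2 and Des were the brightest of the 9 in MI mice (mean log2 intensity 14.56 and 14.78), so that the sum weighs them most and does not stand for the other markers. After the spike-in fit Myh11 (-0.13 ± 0.16, SE), Tagln (-0.06 ± 0.14) and Cnn1 (0.41 ± 0.26), named after their values were seen, did not pass. With the authors' values and in significance analysis of microarrays 3 rose and 0 fell, and on the 75th percentile scale 3 rose (Acta2, Cspg4 and Des) and 2 fell (Rgs5 by 0.46 and Kcnj8 by 0.57 on the log2 scale), of which Cspg4, Rgs5 and Kcnj8 are named after their values were seen. T cell markers had 6 retained genes and B cell markers 5, with 0 calls in each after the spike-in fit (2 and 1 higher at an unadjusted p under 0.05, and 2 and 3 higher in significance analysis of microarrays). Lck (0.19 ± 0.06, SE) and Cd4 (0.18 ± 0.30) had the largest differences among the former, and Cd79b (0.31 ± 0.08) and Cd22 (0.11 ± 0.14) among the latter. Their part in the values of Klf4, Klf5 and Klf15 was not tested.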

How the data were processed

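Arrays of 4 MI mice and 4 sham-operated mice were read. The deposited intensities are the processed signals of Feature Extraction 11.0.1.1, per the file headers with local background subtracted and spatial trends removed, and not normalized between arrays. Deposited flags for detection, saturation and outliers (coded 0 or 1) were used, as were the deposited median intensities of spot and local background. The authors' deposited log2 values were normalized between arrays on the spike-in probes with limma and vsn, with spots not above background removed.

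Here, the vsn model was programmed anew and fitted to 7 spike-in probes with 234 spots, and it set a scale and an additive constant (166 to 257) for every array. The authors' log2 values equal, within 5e-09, the log2 of the scaled processed signal with a constant of 3.16 to 19.6 per array. Outlier spots were left out, spots of a probe averaged, and 34038 of 55681 probes that were not controls retained, being well above background on at least 4 of 8 arrays. Between 58.6% and 66.4% of spots were well above background. Symbols came from RefSeq transcripts of GRCm38.p6, which named 26582 probes, and a gene was read by its brightest retained probe. Groups were compared without covariates in limma 3.58.1 (R 4.3.3), and single values by the exact permutation test. Other tools were Python 3.11.15, numpy 2.4.6, scipy 1.17.1, pandas 2.3.3 and matplotlib 3.10.9. Significance analysis of microarrays was programmed with all 70 label permutations. Both tests were tested on simulated data.

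Named were the 10 genes, the other Klf genes with a retained probe, up to 3 genes per list with the largest log2 fold change among those past the test, and the 2 largest per cell type list. The members and lists were chosen with earlier results of these data known, so that they are no independent evidence. One gene that stood in both the endothelial and the growth factor list is not reported here and was left out of their counts. Alternatives were the 75th percentile, a shift by the spike-ins alone, quantile normalization, the authors' values, normexp (offset 50), detection filters, other probe rules, a replicate block, the slide row, and each mouse left out. Leaving out mice after scaling and in the authors' values was added after seeing the data.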

Additional observations from a re-analysis of the deposited data

Results flagged for a closer look

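In 20 groups of 4 mice (10 Klf genes, MI and sham), the distance of the extreme mouse from its nearest neighbour was set against the range of the group, and 3 groups had a mouse past the 95% critical value of Dixon. Chance alone puts about 1 in 20 groups past it.

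Klf11 had such a mouse in both groups. Sham replicate 4 was at 11.34 on the log2 scale, beside 8.24 to 8.53 in the other sham-operated mice, and MI replicate 4 was at 8.67, beside 8.20 to 8.24 in the other MI mice. Without sham replicate 4, the log2 fold change of Klf11 was -0.04 in place of -0.78. Klf15 was at 9.93 in MI replicate 2, beside 10.82 to 10.89 in the other MI mice. That mouse lies farther from the sham-operated mice than its group does, and the log2 fold change of Klf15 without it was -0.57 (adjusted p = 0.0322 in limma).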

How the results depend on the processing

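Each log2 fold change of the 10 genes was recomputed under 20 settings, which gave 199 values, and 198 kept the direction. The exception was Klf6 after scaling to the 75th percentile (-0.000246). Many of these values could not turn. The detection filters, significance analysis of microarrays, the replicate block, the slide row and the mean over probes left each fold change at that of the spike-in fit. No gene was called as higher after the spike-in fit, but 1 was after scaling to the 75th percentile, the shift by the spike-ins alone, quantile normalization, with the authors' values, normexp, significance analysis of microarrays and the replicate block. As lower, 2 genes were called after scaling, quantile normalization, with the authors' values and in significance analysis of microarrays, 3 with normexp, and 1 (Klf3) with the replicate block. Whether the replicate numbers pair the mice was not settled. The deviations of mice with the same number correlated between 0.00 and 0.36 after the spike-in fit, and between -0.07 and 0.20 after scaling. After the spike-in fit, the best match in the other group had the same number for replicates 1 and 2. For replicates 3 and 4 it had another number. Past 2-fold as well, 1 gene was higher after scaling, the shift, quantile normalization and with the authors' values, and 2 genes were lower after scaling and quantile normalization, and 1 with normexp. With 1 mouse left out, 0 to 1 gene was called in each direction after the spike-in fit, at any fold, and past 2-fold 0 higher and 0 to 1 lower. After scaling, 1 to 2 were higher and 1 to 3 lower, and with the authors' values 1 was higher and 0 to 3 lower. Over all probes, 1271 were called after the spike-in fit, 5955 after scaling, 6181 with quantile normalization, 7110 with normexp, 2008 with the authors' values, 3055 in significance analysis of microarrays and 4935 with the replicate block. The shift by the spike-ins alone put the median log2 fold change of all probes at 0.11. The filters on detection, missing spots, the slide row and the mean over probes changed no call of the 10 genes, with Klf5 not tested where detection on all 8 arrays was asked. The cause of these differences was not tested. Signal close to background limits Klf5 and Klf11.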
